A study of Bos taurus with 24 samples.

Results

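The insulin-like growth factor (IGF) system was described in single bovine early blastocysts through 10 genes taken by symbol from the table of exon counts, namely IGF2, IGF1R, IGF2R, INSR, IRS1, IRS2, IGFBP2, IGFBP3, IGFBP4 and IGFBP7. Of these 10 genes, 9 had a row among the 24621 genes of the table. IGF1R was listed there under its older symbol IGFR1, which the RefSeq gene table of assembly ARS-UCD2.0 gives to no other gene. INSR was not analysed here. IGF ligands and insulin act through tyrosine kinase receptors of the cell surface, which hand the signal to insulin receptor substrates and from there to PI3K, AKT and mTOR. A separate receptor, IGF2R, carries IGF2 to the lysosome for breakdown, and secreted IGF binding proteins hold the ligands and set how much of them reaches a receptor. In ruminants the system is best known in the preimplantation embryo for the disturbed imprinting of IGF2R in oversized fetuses that followed culture with serum.

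The study asked how embryos produced with or without serum differ from embryos grown in the cow, and it sequenced each embryo on its own. The 8 in vivo embryos came from 3 superovulated Holstein cows that were inseminated and flushed 7 days later. The 8 serum and the 8 serum-free embryos came from Holstein oocytes of slaughterhouse ovaries, and they were harvested from 3 independent experiments. Their harvest was 7 days after insemination or the day before, and the paper does not give the day of each embryo. All embryos had the same Holstein bull as sire, and all were early blastocysts of the best quality grade. Serum embryos were matured with fetal bovine serum (FBS) and cultured in synthetic oviduct fluid with FBS. Serum-free embryos were matured with epidermal growth factor (EGF) and cultured in the same fluid with albumin in place of FBS, plus a supplement of insulin, transferrin and selenium. The serum-free medium therefore held added insulin, the hormone that shares this pathway, and the in vitro groups differed in maturation as well as in culture. By the labels, the in vivo group had 5 male and 3 female embryos, the serum group 3 male and 5 female embryos, and the serum-free group 5 male and 3 female embryos.

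Depth was 3253051 to 9000447 exon counts per embryo, and a count of 0 allowed up to 3 counts, or 0.333 to 0.922 CPM (counts scaled to library size) across the 24 embryos. Intervals and limits of this kind cover counting error only. The keratins KRT8 and KRT18, which make up most of the summed level of 8 markers of trophectoderm, the outer layer of the blastocyst, were low in the serum group. In whole embryos fewer cells of a type and less RNA per cell cannot be told apart. All 8 markers were listed, and their summed level was 7570 to 14900 CPM in the in vivo embryos, 329 to 5140 CPM in the serum embryos and 5000 to 28800 CPM in the serum-free embryos. The serum embryos B2, B5 and B7 stood lowest, with 329, 470 and 405 CPM. B5 and B7 are males, and the serum group has 3 males, so fits without B2, B5 and B7 also changed the balance of the sexes. In the in vivo, serum and serum-free groups the median was 8770, 749 and 6990 CPM for KRT8, 1830, 180 and 1030 CPM for KRT18, 89.4, 21.3 and 96.5 CPM for GATA3 and 37.6, 7.21 and 31.4 CPM for GATA2. TFAP2A was lower in serum too, with medians of 3.64, 0.505 and 2.31 CPM. TFAP2C was not, with medians of 231, 230 and 209 CPM. CDX2 and ELF5 stayed at or under 2.51 CPM in every embryo, with medians of 0.992, 0.333 and 1.03 CPM for CDX2. Inner cell mass markers (4 of 6 listed) summed to 552 to 817, 456 to 978 and 484 to 750 CPM in the in vivo, serum and serum-free groups. Most of that sum was DPPA3 and POU5F1, with medians of 460, 437 and 402 CPM and of 212, 153 and 179 CPM. The medians of NANOG were 12.4, 28.3 and 22 CPM and those of SOX2 7.88, 16.1 and 11.2 CPM, so the genes did not move together. Hypoblast markers (6 of 6 listed) summed to 347 to 611, 28.1 to 235 and 130 to 415 CPM, with SOX17 at 0 in all in vivo and serum embryos. Most of that sum was PDGFRA, with medians of 476, 80.9 and 198 CPM, whereas GATA6 had 17.4, 20.4 and 15.3 CPM. Oocyte markers summed to at most 15.5, 172 and 104 CPM in the in vivo, serum and serum-free groups, with medians of 6.48, 7.72 and 14.5 CPM. Markers of cells from outside the embryo had maxima of 53.3 CPM for cumulus and granulosa, 17.9 CPM for oviduct and endometrium and 47.5 CPM for blood. The labels name neither the in vitro experiment, the donor cow nor the sequencing lane of an embryo, so these could not be told apart from the groups.

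Of the 9 listed genes, IGFBP2 was well counted in every embryo, IGF1R had 4 to 94 counts, and the other 7 were near the limit of detection. The highest count of any of these 7 genes in any embryo was 37, of IGFBP3 in the serum-free embryo C7. A gene entered the test when every embryo of at least 1 group had at least 15 counts, and only IGFBP2 did so when the sexes were pooled. IGF1R entered as well in the 9 comparisons that split the embryos by sex. In each of these that set a group against another, only the group with the higher IGF1R mean met the filter. The other group held A7, B7 or C2, with 5, 4 and 11 counts. Neither gene was called in any of the 12 comparisons by edgeR's quasi-likelihood test, and 0 had an unadjusted p-value under 0.05. A call required a Benjamini-Hochberg adjusted p-value under 0.05 over all tested genes and a fold change of at least 2. By that rule 13.8% of all tested genes were called between in vivo and serum embryos, 2.2% between in vivo and serum-free embryos and 8.91% between serum and serum-free embryos. The last comparison was not among those of the study and was added because of the insulin in the serum-free medium. With genes of at least 1 count in at least 1 embryo admitted, the low genes could be tested too, and IGFBP4 was then called in 2 comparisons. Under that rule 7.32%, 0.772% and 2.97% of all genes were called in the 3 comparisons. Split by direction, 3.42% were higher in vivo and 3.9% higher in serum in the first, and 1.72% were higher in serum-free embryos in the last.

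**Figure D1:**
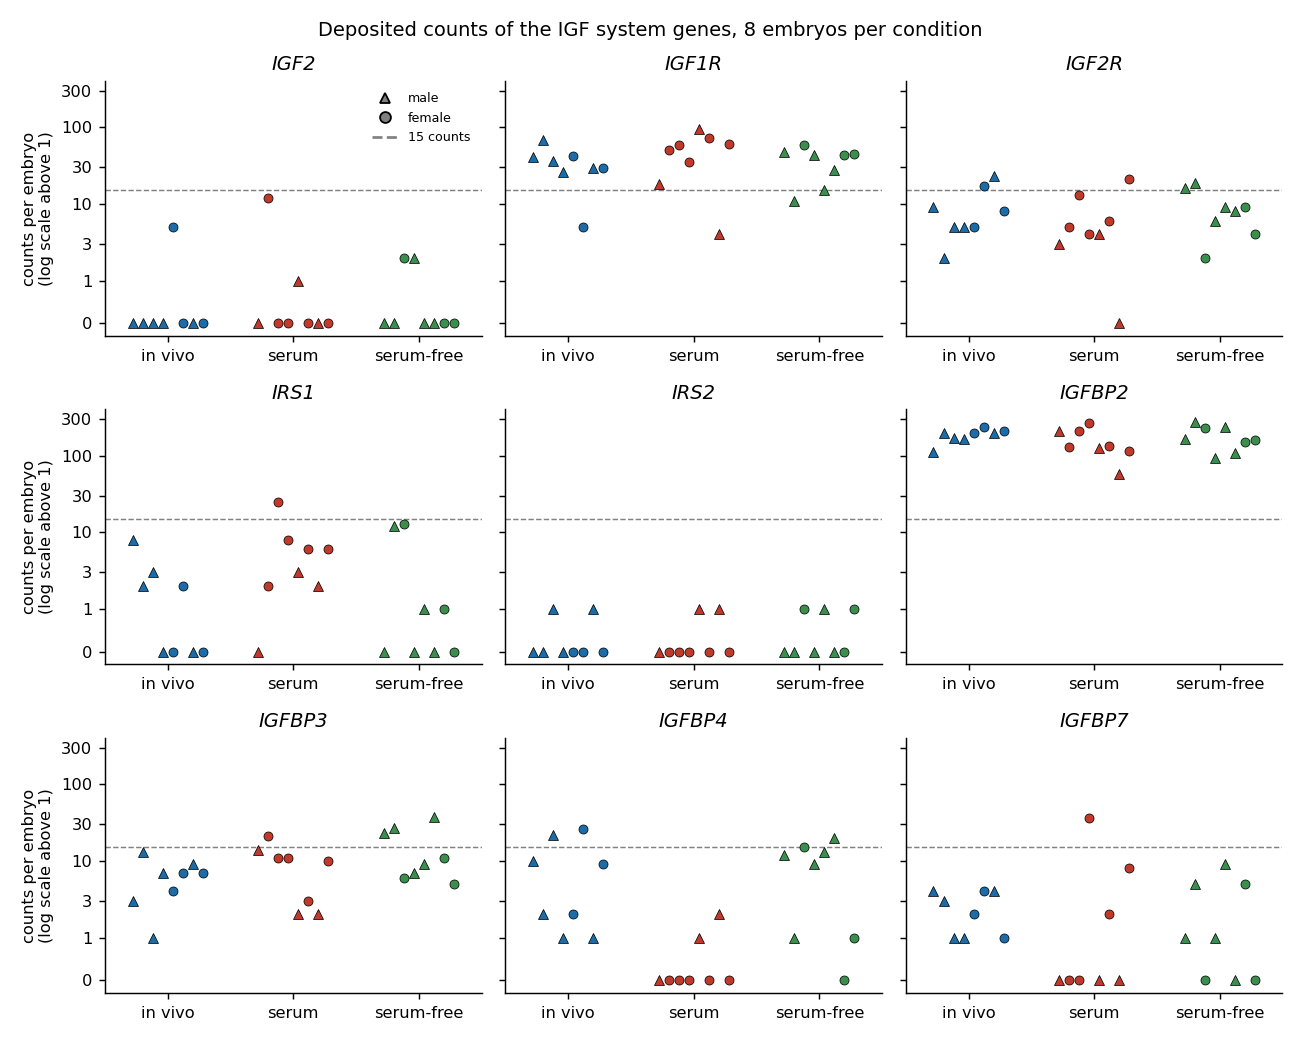
Exon counts of the 9 listed IGF system genes in each embryo (y axis, counts, linear below 1 and logarithmic above), by culture condition (x axis), with triangles for male and circles for female embryos. IGFBP2 lies between 58 and 275 counts in all 24 embryos, whereas IGF2 and IRS2 are at 0 in most embryos and IGFBP4 is at 0 in 6 of the 8 serum embryos. The dashed line marks 15 counts.

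IGF2, the fetal growth factor of the system, was hardly present. It had 22 counts in all 24 embryos together, and 19 embryos had none. In the in vivo group the lowest count was 0, the median 0 and the highest 5, in the female embryo A6. In the serum group the lowest was 0, the median 0 and the highest 12, in the female embryo B2. In the serum-free group the lowest was 0, the median 0 and the highest 2, in the embryos C3 and C4. The groups overlapped at 0, and a single embryo held 12 of the 13 serum counts. With the low genes admitted, the adjusted p-value (edgeR) was 0.617 for in vivo against serum, 0.938 for in vivo against serum-free and 0.549 for serum against serum-free embryos. No fold change is given because the median of each group was 0.

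The other ligand genes had few counts as well. INS, which encodes insulin and neighbours IGF2 in the RefSeq annotation of assembly ARS-UCD2.0, had 0 counts in all 24 embryos. H19, the noncoding RNA of the same imprinted locus, had 1 count in all, in a serum-free embryo. IGF1, listed as IGF-I, had 13, 13 and 4 counts in the in vivo, serum and serum-free groups, never more than 4 in an embryo. Its adjusted p-values with low genes admitted were 0.868, 0.533 and 0.584 by edgeR in the 3 comparisons.

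IGF1R, the tyrosine kinase receptor through which both IGFs signal, had a count in all 24 embryos. The in vivo embryos had 5 to 68 counts with a median of 32.5, or 7.77 ± 3.51 CPM (SD, n = 8). Serum embryos had 4 to 94 counts with a median of 54.5, or 9.17 ± 4.41 CPM (SD, n = 8). Serum-free embryos had 11 to 59 counts with a median of 43.5, or 8.59 ± 3.77 CPM (SD, n = 8). The 3 ranges overlapped, and the lowest embryos were A7 in vivo and B7 in serum, at 1.14 and 1.25 CPM. With low genes admitted, in vivo over serum embryos gave a log2 fold change of -0.23 (SE 0.463, 95% interval -1.22 to 0.764, edgeR adjusted p = 0.783, with 0.578 to 0.942 over its alternatives). In vivo over serum-free embryos gave -0.12 (SE 0.421, interval -1.03 to 0.777), and serum over serum-free embryos gave 0.09 (SE 0.463, interval -0.9 to 1.08), which turned to -0.12 with sex as a covariate. None of these differences was larger than the spread between embryos.

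By sex, IGF1R was 8.74 ± 2.77 CPM in in vivo males (SD, n = 5) and 6.16 ± 4.64 CPM in in vivo females (SD, n = 3). Serum males had 5.75 ± 4.83 CPM (n = 3) and serum females 11.2 ± 2.89 CPM (n = 5), and serum-free males had 7.08 ± 3.94 CPM (n = 5) and serum-free females 11.1 ± 1.88 CPM (n = 3). The mean was higher in females in both culture groups and in males in vivo, but the ranges of the sexes overlapped in each condition. In each condition only the sex with the higher mean met the filter, so the fits by sex are given as a description. Male over female embryos gave 0.51 (SE 0.568) in vivo, -0.94 (SE 0.639) in serum and -0.64 (SE 0.523) in serum-free embryos, and the adjusted p-values by edgeR were 0.757, 0.93 and 0.823. The difference between the sexes in the effect of culture had adjusted p-values of 0.996 for serum and 0.855 for serum-free culture by edgeR.

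IGF2R, the receptor that clears IGF2, was found in 23 of 24 embryos at a few counts each. In vivo embryos had 2 to 23 counts with a median of 6.5, and a level of 2.21 ± 1.75 CPM (SD, n = 8). Serum embryos had 0 to 21 counts with a median of 4.5, and a level of 1.4 ± 1.32 CPM (SD, n = 8). Serum-free embryos had 2 to 19 counts with a median of 8.5, and a level of 2.19 ± 1.31 CPM (SD, n = 8). The 3 ranges overlapped, and the only embryo without a count was the male serum embryo B7. The log2 fold change of in vivo over serum embryos was 0.65 (SE 0.752, edgeR adjusted p = 0.6, with 0.398 to 0.899 over its alternatives), and the interval of -0.959 to 2.27 held changes of either sign. For in vivo over serum-free embryos it was 0.02 (SE 0.636, 95% interval -1.34 to 1.39). For serum over serum-free embryos it was -0.64 (SE 0.767, interval -2.28 to 1.01). None of the 3 differences was larger than the spread between embryos.

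IRS1, a docking protein that the IGF1 and insulin receptors phosphorylate, was counted in 15 of 24 embryos. In vivo embryos had 0 to 8 counts with a median of 1, serum embryos 0 to 25 with a median of 4.5, and serum-free embryos 0 to 13 with a median of 0.5. A count was present in 4 of 8 in vivo, 7 of 8 serum and 4 of 8 serum-free embryos. The serum total of 52 counts was set against 15 in vivo, and the female embryo B3 supplied 25 of the 52. The log2 fold change of in vivo over serum embryos was -1.52 (SE 1.03, interval -3.72 to 0.684, edgeR adjusted p = 0.358, with 0.146 to 0.7 over its alternatives), so the difference did not pass. Within the sexes the female serum embryos had 2 to 25 counts and the female in vivo embryos 0 to 2. That female comparison gave an unadjusted p-value of 0.0452 and an edgeR adjusted p-value of 0.37, and it was not called.

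IRS2, the second widely used substrate, had 7 counts in the whole series, never more than 1 in an embryo. They fell in 2 in vivo, 2 serum and 3 serum-free embryos. A level this low was at or under the detection limit in each embryo, so no fold change is given.

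IGFBP2, a binding protein with affinity for IGF2, was the gene of the set with the most counts in each group. In vivo embryos had 113 to 238 counts with a median of 196.5, or 42.5 ± 8.87 CPM (SD, n = 8). Serum embryos had 58 to 266 counts with a median of 132, or 33.2 ± 16.8 CPM (SD, n = 8). Serum-free embryos had 93 to 275 counts with a median of 162, or 42.2 ± 15.6 CPM (SD, n = 8). The in vivo range of 31.2 to 54.4 CPM lay within the serum range of 14.6 to 59.9 CPM, and the 4 lowest embryos of the series were all serum embryos (B5, B7, B8 and B6).

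The IGFBP2 differences between conditions were smaller than the spread between embryos. In vivo over serum embryos gave a log2 fold change of 0.36 (SE 0.278, 95% interval -0.238 to 0.956, edgeR adjusted p = 0.343, with 0.157 to 0.885 over its alternatives). It was 0.06 when the serum embryos B2, B5 and B7, with the lowest summed trophectoderm markers, were left out together. B5 and B7 are males and had the lowest IGFBP2 levels, at 14.6 and 18.1 CPM. That fit therefore cannot separate the markers from sex or from the low IGFBP2 of B5 and B7. In vivo over serum-free embryos gave 0.01 (SE 0.215, interval -0.455 to 0.465, adjusted p = 0.991 by edgeR). Serum over serum-free embryos gave -0.35 (SE 0.311, interval -1.02 to 0.313, adjusted p = 0.445 by edgeR). For in vivo against serum-free embryos a change as large as 2-fold lay outside the interval, and for serum against serum-free embryos it did not.

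Sex was compared within each condition, since the labels give the sex of each embryo. Among in vivo embryos IGFBP2 was 37.2 ± 6.49 CPM in males (SD, n = 5) and 51.1 ± 3.16 CPM in females (SD, n = 3). The highest male was at 48.0 CPM and the lowest female at 48.1 CPM, and how many other genes separate so few embryos was not counted. The log2 fold change of male over female embryos was -0.46 (SE 0.218, unadjusted p = 0.054 and adjusted p = 0.38 by edgeR), where 0.653% of all tested genes were called. In the serum group males had 14.6 to 59.9 CPM and females 21.1 to 48.4 CPM, with a log2 fold change of -0.16 (SE 0.54) and 0.173% of genes called. In the serum-free group males had 26.3 to 68.9 CPM and females 34.4 to 47.5 CPM, with 0.10 (SE 0.373) and 0.139% of genes called. The sexes overlapped in both culture groups.

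Between male embryos the log2 fold change of IGFBP2 was 0.27 (SE 0.445) for in vivo over serum and -0.24 (SE 0.296) for in vivo over serum-free embryos, where 13.3% and 0.966% of genes were called. The first value rested on 3 serum males, of which B1 had 59.9 CPM and B5 and B7 had 14.6 and 18.1 CPM. Without B1 it was 1.24 (adjusted p = 0.0176 by edgeR) and was called, and its adjusted p-value was 0.708 with all embryos. Between female embryos it was 0.54 (SE 0.345) for in vivo over serum and 0.34 (SE 0.267) for in vivo over serum-free embryos, where 0.418% and 0.304% of genes were called. The female in vivo embryos had 48.1 to 54.4 CPM and the female serum-free embryos 34.4 to 47.5 CPM. That difference was not called (adjusted p = 0.632 by edgeR). The difference between the sexes was itself tested and was -0.31 (SE 0.58, adjusted p = 0.998 by edgeR) for serum and -0.57 (SE 0.43, adjusted p = 0.865) for serum-free culture, with 0% of genes called in each.

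**Figure D2:**
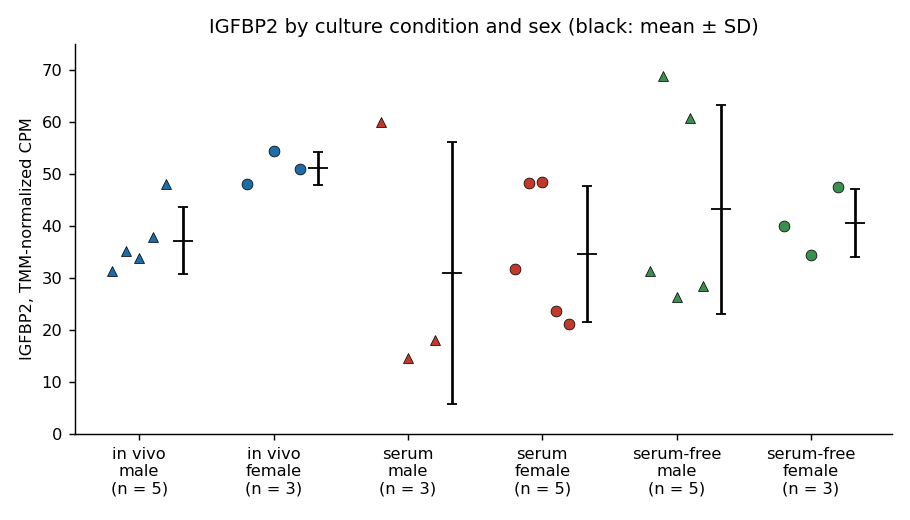
IGFBP2 level (y axis, TMM-normalized CPM) of each embryo by culture condition and sex (x axis), with the mean and SD in black and the number of embryos under each group. The in vivo males have 31.2 to 48.0 CPM and the in vivo females 48.1 to 54.4 CPM, a difference that was not called. The serum male mean of 30.9 ± 25.2 CPM spans 1 high and 2 low embryos.

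By the rule used for well-counted genes, those whose level followed IGFBP2 most closely over the 24 embryos were POGK, ANAPC15 and NXT1. Pearson's r of the log2 level was 0.747, 0.741 and 0.736, chosen as the highest of 6630 genes, and 0.698, 0.704 and 0.682 after the mean of each condition was removed. The values come from the same 24 libraries and are given as a description.

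IGFBP4, a binding protein that holds IGFs away from their receptors until the protease PAPPA cleaves it, was nearly absent from serum embryos. The 8 in vivo embryos had 1, 1, 2, 2, 9, 10, 22 and 26 counts. The serum embryos B5 and B7 had 1 and 2 counts and the other 6 had 0. The serum-free embryos had 0, 1, 1, 9, 12, 13, 15 and 20 counts. All 8 in vivo, 2 of 8 serum and 7 of 8 serum-free embryos had a count, and the ranges overlapped at 1 and 2 counts, where 4 in vivo embryos lay.

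Summed over 8 embryos, IGFBP4 had 73 counts in vivo, 3 in serum and 71 in serum-free embryos. Per depth the in vivo sum was 26.8 times the serum sum (95% counting interval 8.83 to 133) and 0.981 times the serum-free sum (interval 0.698 to 1.38). Across embryos, with the low genes admitted, the fitted log2 fold change of in vivo over serum embryos was 4.30 (SE 1.09, edgeR adjusted p = 0.0124). It was called under each alternative tried on that filter, with adjusted p-values of 0.000578 to 0.0343. Serum over serum-free embryos gave -4.27 (SE 1.15, edgeR adjusted p = 0.0355, with 0.00198 to 0.0819 over its alternatives). This second call was lost when any 1 of the embryos B3, B4, B5, B6, C1, C3, C4, C6 and C7 was left out, with adjusted p-values of 0.0506 to 0.0819. In vivo over serum-free embryos gave 0.02 (SE 0.81, interval -1.72 to 1.76, edgeR adjusted p = 0.999). Under the filter of 15 counts IGFBP4 was not tested at all.

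A low sum of trophectoderm markers and low IGFBP4 counts occurred in the same group, the serum group. Of that list KRT8, KRT18, GATA2, GATA3 and TFAP2A had lower medians there and TFAP2C did not, while CDX2 and ELF5 had few counts throughout. Within the serum group, the embryos with an IGFBP4 count, B5 and B7, were among the 3 with the lowest markers. The highest serum embryo, B8, had 5140 CPM of trophectoderm markers and 0 IGFBP4 counts. The serum-free embryos C1, C7 and C8 had 5000, 28800 and 14600 CPM with 12, 20 and 0 counts. The in vivo embryos A7 and A8 had 13400 and 10800 CPM with 26 and 1 counts. With B2, B5 and B7 left out, the 5 remaining serum embryos had 0 counts. Both differences were then called, with adjusted p-values by edgeR of 0.00924 against in vivo and 0.0437 against serum-free embryos. B5 and B7 held all serum counts of IGFBP4, so leaving them out could only widen the fold change. That fit therefore does not test the part of the markers. The hypoblast marker PDGFRA was low in the serum group too, and GATA6 was not. The part of either marker group in the result was not tested.

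**Figure D3:**
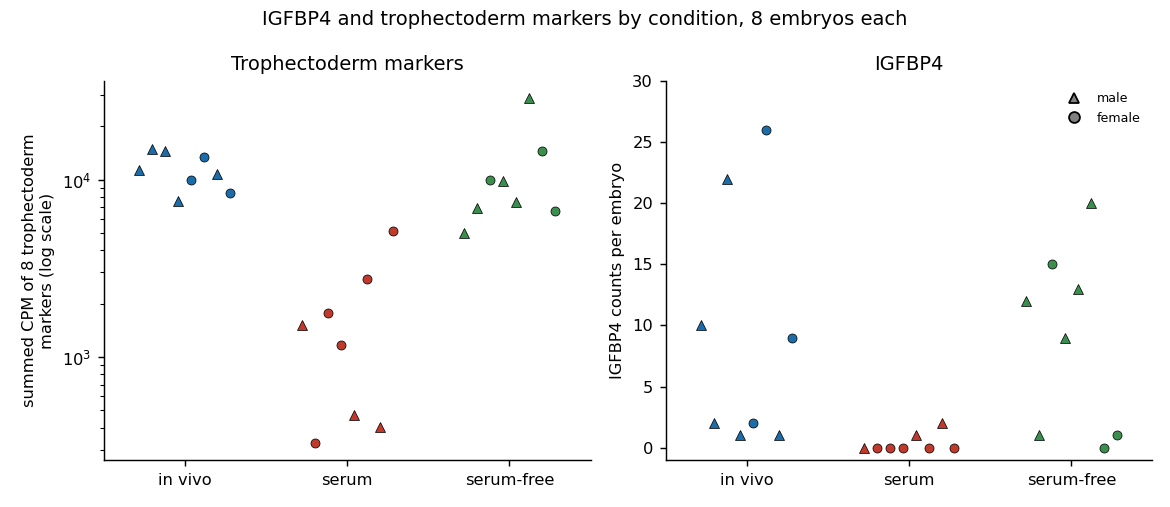
Summed level of 8 trophectoderm markers (left, CPM on a log axis) and IGFBP4 counts (right, linear axis) of each embryo by culture condition, with triangles for male and circles for female embryos. Serum embryos are low on both, at 329 to 5140 CPM and 0 to 2 counts, and the in vivo and serum-free embryos share the range of 0 to 26 counts.

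By sex, the IGFBP4 counts were 1 to 22 in in vivo males, 2 to 26 in in vivo females, 0 to 2 in serum males, 0 in all 5 serum females, 1 to 20 in serum-free males and 0 to 15 in serum-free females. The comparison of in vivo with serum embryos was called in neither sex alone, with edgeR adjusted p-values of 0.321 in males and 0.135 in females. The difference between the sexes had an adjusted p-value of 0.702 by edgeR. These came from the filter that admitted low genes, the only one that gave a value.

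IGFBP3, the main carrier of IGFs in blood, was found in all 24 embryos at 1 to 37 counts. In vivo embryos had 1 to 13 counts with a median of 7 (1.43 ± 0.713 CPM, SD, n = 8), serum embryos 2 to 21 with a median of 10.5 (2.11 ± 1.74 CPM) and serum-free embryos 5 to 37 with a median of 10 (3.77 ± 3.02 CPM). The serum-free males C1, C2 and C7 were the highest of that group, with 23, 27 and 37 counts, and the counts of the remaining serum-free embryos lay within the range of the in vivo group. The log2 fold change of in vivo over serum-free embryos was -1.35 (SE 0.612, interval -2.66 to -0.0374). The unadjusted p-value was 0.0363 and the adjusted p-value 0.274 by edgeR, with 0.105 to 0.542 over its alternatives, so it was not called. In vivo over serum embryos gave -0.51 (SE 0.704) and serum over serum-free embryos -0.86 (SE 0.694), and neither passed.

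IGFBP7, a relative that binds IGFs weakly and insulin as well, had 1 to 4 counts in every in vivo embryo. Serum embryos had 0 to 36 counts, and 5 of the 8 had none. Serum-free embryos had 0 to 9 counts, and 3 of the 8 had none. The female serum embryo B4 held 36 of the 46 serum counts, so the log2 fold change of in vivo over serum embryos was -0.86 (SE 1.09) with it and 1.03 without it, and neither value passed the test. The 3 serum males had 0 counts each against 1 to 4 in the 5 in vivo males. That comparison had an unadjusted p-value of 0.0267 and an adjusted p-value of 0.159 by edgeR.

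The remaining genes of the pathway were read from a list of 76, of which 75 had a row. The filter of 15 counts admitted 33 of them for in vivo against serum embryos, and 4 (12.1%) were called beside 13.8% of all genes. Of these, 2 were higher in vivo and 2 in serum, where 7.34% and 6.43% of all genes were. For in vivo against serum-free embryos 2 of 31 (6.45%) were called beside 2.2%. Both were higher in serum-free embryos, as were 1.61% of all genes, and 0 were higher in vivo, where 0.588% were. For serum against serum-free embryos 2 of 31 (6.45%) were called beside 8.91%. Of these, 1 was higher in serum and 1 in serum-free embryos, where 3.55% and 5.36% of all genes were. The median log2 fold change of the tested list genes was -0.165, -0.068 and -0.0791 in the 3 comparisons, where that of all genes was -0.0147, -0.00304 and 0.0184. The calls were 5 genes, IGF2BP3, GAB1, PTPN1, DDIT4 and SESN1.

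**Figure D4:**
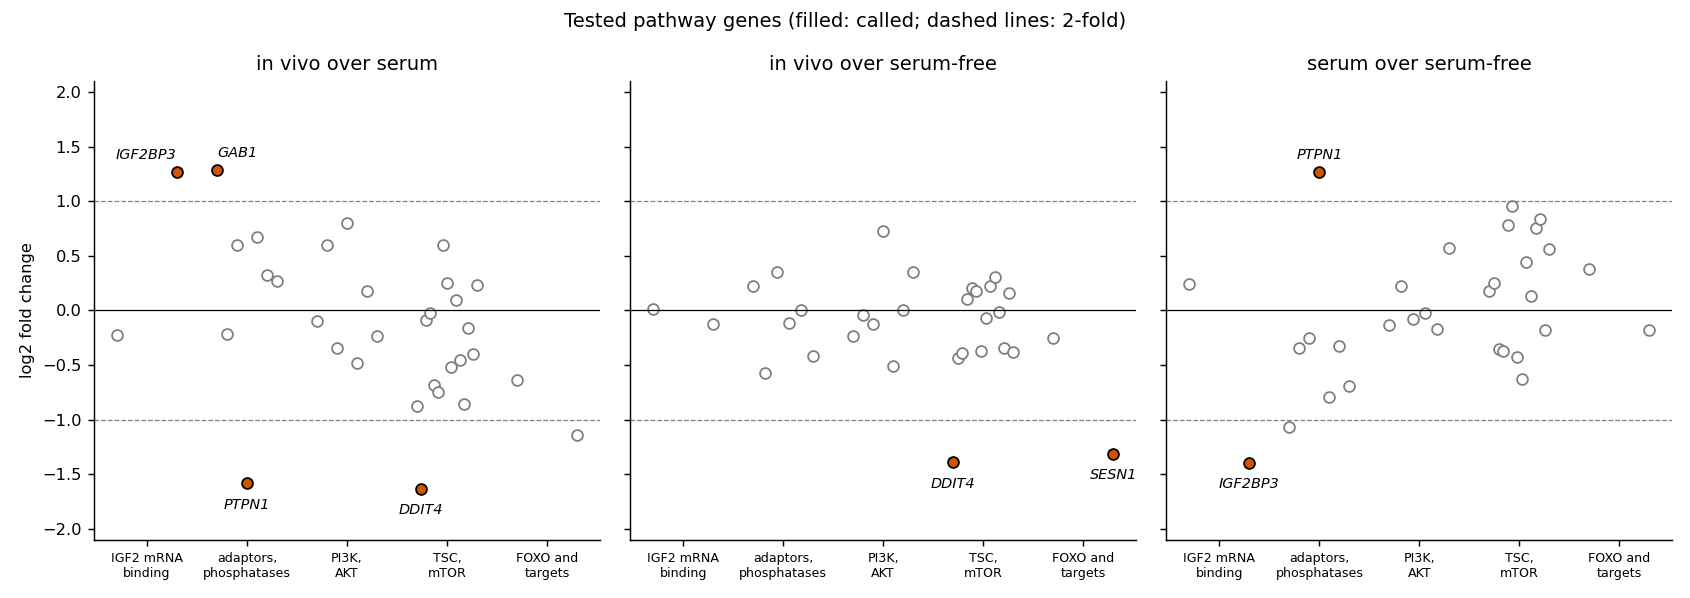
Log2 fold change (y axis) of each tested gene of the pathway lists, grouped by role (x axis), in the 3 comparisons named above the panels. Filled points with names are called, and the dashed lines mark a fold change of 2. Of the tested genes, 4 of 33, 2 of 31 and 2 of 31 are called.

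Most binding proteins outside the set, and the proteases that cut them or their inhibitors, had few counts. None of the 10 listed genes passed the filter of 15 counts. IGFBP5, which neighbours IGFBP2 in the RefSeq annotation, had 85, 85 and 122 counts in the in vivo, serum and serum-free groups, with 70 of the serum counts in the embryo B4. IGFBP6 had 25, 33 and 41 counts and IGFBP1, the neighbour of IGFBP3, a single count in the series. PAPPA, the protease of IGFBP4, had 8, 13 and 20 counts, and PAPPA2 had 68, 114 and 27. STC1, a secreted inhibitor of PAPPA, had the most counts of the list over all embryos, with 105, 513 and 114 by group. Its counts were 3 to 35 in vivo with a median of 11, 0 to 170 in serum with a median of 59 and 2 to 34 in serum-free embryos with a median of 11.5, and the ranges overlapped. With low genes admitted, in vivo over serum embryos gave -2.02 on the log2 scale for STC1 (SE 0.72, edgeR adjusted p = 0.0718) and serum over serum-free embryos 1.93 (SE 0.724, edgeR adjusted p = 0.124). Without B2, B5 and B7 the first was -2.05 (edgeR adjusted p = 0.0451) and was called. With low genes admitted and all embryos kept, 0 of the 10 genes were called by edgeR in any of the 3 comparisons. The share of all genes called was 7.32%, 0.772% and 2.97%. Of the 10 genes, 1, 0 and 2 had an unadjusted p-value under 0.05. INSRR, an orphan relative of the insulin receptor that senses alkaline pH, had 2 counts in vivo, 55 in serum and 15 in serum-free embryos. With low genes admitted it was called higher in serum than in in vivo embryos (edgeR adjusted p = 0.0215).

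Of the RNA binding proteins named for IGF2 mRNA, IGF2BP3 was lower in serum embryos than in both other groups. In vivo embryos had 60.1 to 162 CPM with a median of 111, serum embryos 22.3 to 66.6 with a median of 47.8 and serum-free embryos 70.7 to 181 with a median of 114. Every serum-free embryo lay above every serum embryo, and of the in vivo embryos only A6 lay within the serum range. In vivo over serum embryos gave 1.27 on the log2 scale (SE 0.236, edgeR adjusted p = 0.00101) and serum over serum-free embryos gave -1.40 (SE 0.244, edgeR adjusted p = 0.00298). In vivo and serum-free embryos differed by -0.13 (SE 0.211, edgeR adjusted p = 0.78). IGF2BP1 was 196 ± 24.6, 230 ± 79.5 and 194 ± 36.2 CPM (SD, n = 8 each) and was not called. IGF2BP2 had 256, 151 and 134 counts and did not pass the filter.

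At the level of the receptor, 2 of 7 tested adaptors and phosphatases were called between in vivo and serum embryos, beside 13.8% of all genes. Both passed the filter only through the group where they were higher, so their calls are given as a description. PTPN1 had at least 15 counts in all 8 serum embryos, but in 6 in vivo and 6 serum-free embryos. With 15 counts required in every embryo of both groups, PTPN1 was not tested. PTPN1, the phosphatase that switches off the insulin receptor, had 1.94 to 8.53 CPM in vivo with a median of 5.63, 5.65 to 46.6 CPM in serum with a median of 12.5, and 3.66 to 10.3 CPM in serum-free embryos with a median of 7.19. The ranges overlapped, with the female B3 the highest serum embryo at 46.6 CPM. On the log2 scale the change was -1.58 (SE 0.425, edgeR adjusted p = 0.00994) for in vivo over serum and 1.27 (SE 0.396, edgeR adjusted p = 0.0358) for serum over serum-free embryos. Without B3 the second value was 0.84 (adjusted p = 0.0908 by edgeR) and was not called. The call was also lost, at 0.0519 to 0.0692, without any 1 of B7, C3, C4, C6, C7 and C10, and when B2, B5 and B7 were left out together (0.0921), with sex as a covariate (0.0598) and with low genes admitted (0.0898).

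GAB1, an adaptor that links receptors to PI3K, was 31.2 ± 15.6, 12.8 ± 8.25 and 26.6 ± 12.9 CPM in the in vivo, serum and serum-free groups (SD, n = 8 each). GAB1 had at least 15 counts in all 8 in vivo embryos and in 7 serum embryos. With 15 counts required in every embryo of both groups, GAB1 was not tested. In vivo over serum embryos gave a log2 fold change of 1.29 (SE 0.463, edgeR adjusted p = 0.044), near the threshold. The call held in 4 of 16 fits that left out an embryo, those without A3, B5, B6 or B8, with adjusted p-values of 0.0156 to 0.102 over all 16. Without B2, B5 and B7 it was 0.993 (edgeR adjusted p = 0.104) and was not called, nor was it with low genes admitted (0.0623). PTPN11, the phosphatase SHP2 that works with GAB1, was higher in vivo than in serum by 0.67 on the log2 scale (SE 0.229, edgeR adjusted p = 0.0339), under the limit of 2-fold. Without B2, B5 and B7 PTPN11 was 0.404 (edgeR adjusted p = 0.138) and no longer passed. GRB10, an imprinted adaptor that restrains the insulin receptor, was 12.8 ± 5.38, 14.9 ± 8.08 and 19 ± 10.9 CPM and did not pass in any comparison. With low genes admitted, GRB14, a related adaptor, was called lower in vivo than in serum embryos, with 2 counts against 42 (edgeR adjusted p = 0.0322). Without B2, B5 and B7 its adjusted p-value was 0.0755.

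Of the genes of PI3K and AKT signalling, 7 were tested for in vivo against serum, 7 for in vivo against serum-free and 6 for serum against serum-free embryos. By edgeR 0 were called in any of the 3, beside 13.8%, 2.2% and 8.91% of all genes. Of the tested genes of this list, 0, 1 and 0 had an unadjusted p-value under 0.05. AKT1, the kinase downstream of PI3K, was 8.86 ± 3.72, 6.55 ± 5.12 and 7.09 ± 2.94 CPM (SD, n = 8 each) and did not pass the filter.

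In the mTOR branch, DDIT4, a stress-induced inhibitor of mTOR complex 1, was lower in vivo than in either in vitro group. Levels in vivo were 34.9 to 61.0 CPM with a median of 47.5, serum embryos 78.4 to 282 with a median of 123 and serum-free embryos 35.8 to 203 with a median of 113. Every serum embryo lay above every in vivo embryo, and of the serum-free embryos only C7, at 35.8 CPM, lay within the in vivo range. On the log2 scale the difference was -1.63 (SE 0.259, edgeR adjusted p = 0.000326) for in vivo over serum and -1.39 (SE 0.266, edgeR adjusted p = 0.004) for in vivo over serum-free embryos. Serum and serum-free embryos did not differ beyond their spread, at 0.25 (SE 0.322, edgeR adjusted p = 0.621). Against serum it was -1.91 when B2, B5 and B7 were left out.

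A further pair of mTOR genes moved by less than 2-fold between in vivo and serum embryos. RPS6KB2, an S6 kinase, was lower in vivo, at -0.85 on the log2 scale (SE 0.153, edgeR adjusted p = 0.000732), and no in vivo embryo overlapped a serum embryo. RHEB, the GTPase that activates mTOR, was lower in vivo, at -0.51 (SE 0.15, edgeR adjusted p = 0.0156). Both were also higher in serum than in serum-free embryos, by 0.84 (SE 0.176, edgeR adjusted p = 0.00729) and 0.45 (SE 0.141, edgeR adjusted p = 0.0382). Without B2, B5 and B7 RHEB passed in neither comparison, at -0.338 (edgeR adjusted p = 0.0841) and 0.266 (edgeR adjusted p = 0.227), whereas RPS6KB2 passed in both, at -0.943 (edgeR adjusted p = 0.00074) and 0.921 (edgeR adjusted p = 0.016). With no limit on the fold, 28.3% of all genes passed for in vivo against serum, 5.82% for in vivo against serum-free and 16.3% for serum against serum-free embryos, beside 8 of 33, 2 of 31 and 5 of 31 pathway genes.

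Among FOXO factors and genes that FOXO activates, 2 of 12 were tested. SESN1, a stress-response gene that restrains mTOR complex 1, was 7.7 ± 3.69, 17.1 ± 10.5 and 19.1 ± 11.9 CPM in the in vivo, serum and serum-free groups (SD, n = 8 each). In vivo over serum-free embryos gave a log2 fold change of -1.31 (SE 0.384, edgeR adjusted p = 0.0465), and the ranges of 3.23 to 14.8 and 6.48 to 37.8 CPM overlapped. That call held in 5 of 16 fits that left out an embryo, those without A9, C4, C7, C8 or C10, with adjusted p-values of 0.031 to 0.094, and it was lost in a fit over all 24 embryos (0.251) and with low genes admitted (0.0914). Against serum it was -1.14 (SE 0.565, edgeR adjusted p = 0.133). Without B5, which had 0.115 CPM, that value was -1.37 (adjusted p = 0.0138 by edgeR) and was called, and without B2, B5 and B7 it was -1.32 (adjusted p = 0.0298 by edgeR) and was called. CITED2, a transcription cofactor, was lower in vivo than in serum, at -0.63 on the log2 scale (SE 0.21, edgeR adjusted p = 0.0306). FOXO1 had 28, 89 and 39 counts and FOXO3 144, 142 and 121, and neither passed the filter.

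**Figure D5:**
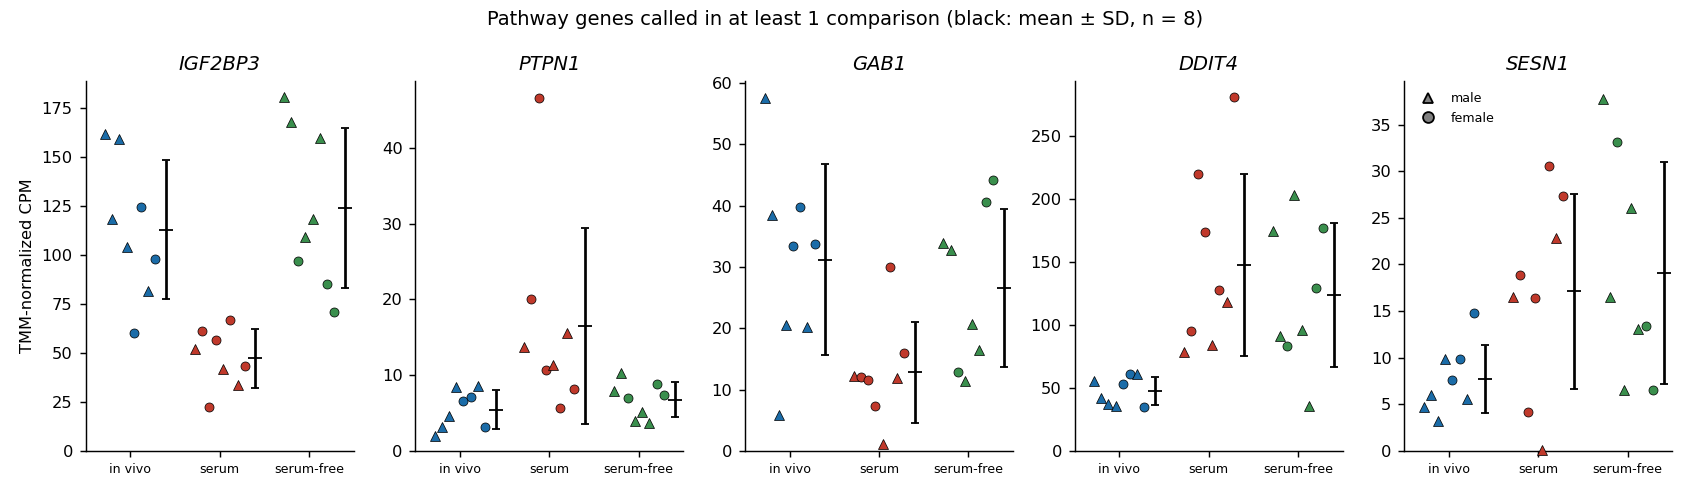
Level (y axis, TMM-normalized CPM) of the 5 called pathway genes in each embryo by culture condition (x axis), with the mean and SD of 8 embryos in black. IGF2BP3 is lowest in serum embryos, at 22.3 to 66.6 CPM, and DDIT4 is low in vivo, at 34.9 to 61.0 CPM, where 1 serum-free embryo at 35.8 CPM overlaps it.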

How the data were processed

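Single bovine early blastocysts were sequenced with a kit that keeps no strand, 8 per condition. Per the study's methods the authors mapped the reads to the bovine genome build UMD 3.1 with CLC Genomics Workbench and deposited unique exon read counts, not normalized, for 24621 genes, of which 19556 had a count. Members and lists were chosen with earlier results of these data known. Genes were matched by symbol, or by a RefSeq synonym (ARS-UCD2.0) that belongs to 1 gene, which found IGF1R, IGF1 and PAEP. INSR and PIK3R3 were not analysed here, and 1 other pathway gene is not reported here.

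The counts were tested with edgeR 4.0.16 in R 4.3.3 (quasi-likelihood test, TMM, only the groups compared), on genes with at least 15 counts in every embryo of at least 1 group. Genes were called when they moved 2-fold or more with a Benjamini-Hochberg adjusted p-value below 0.05. Low genes were tested with at least 1 count in at least 1 embryo, and IGFBP2 correlations used log2(CPM + 1). DESeq2 1.42.0, its size factors, edgeR's exact test, other filters, a fit over all 24 embryos, sex as a covariate, a replicate block and leaving out each embryo were the alternatives. The fits were tested on simulated data. Depth was 3253051 to 9000447 counts per embryo.

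Named genes were the 10 members, IGF1, INS, IGFBP1, IGFBP5, IGFBP6, PAPPA, PAPPA2, H19, the IGF2BP genes, GRB10, AKT1, FOXO1 and FOXO3, the called pathway genes, and the 3 genes most like a member of at least 10 CPM. STC1, INSRR, GRB14, PTPN11, RPS6KB2, RHEB and CITED2 were named after their values were seen. Per the study's methods the in vivo embryos came from 3 cows and the in vitro embryos from 3 experiments, so embryos of a group share cows or experiments. The labels do not name the cow or the experiment of an embryo. The p-values treat each embryo as a replicate and measure the spread between these embryos only. No pair of embryos within a condition matched within sampling noise (lowest chi-square per degree of freedom 13.8 over 84 pairs).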

Additional observations from a re-analysis of the deposited data

Results flagged for a closer look

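In 8 of 42 groups of 8 embryos, over 14 genes, the highest embryo stood apart from the rest of its condition by Dixon's criterion. For normally distributed values chance meets it in about 1 of 20 groups. That rate does not hold for genes at 0 in most embryos, so the 8 groups are given as a description. Most of them are of genes near the limit of detection. IGF2 was 1.23 CPM in the in vivo embryo A6, with the rest of the group at 0, and 2.93 CPM in the serum embryo B2. IRS1 was 2.21 CPM in the in vivo embryo A1 and 5.8 CPM in the serum embryo B3. IRS2 was 0.312 CPM in the serum embryo B7, from 1 count, and IGFBP4 was 0.624 CPM in the same embryo, from 2 counts. IGFBP7 was 6.55 CPM in the serum embryo B4, which also held most serum counts of IGFBP5. PTPN1 was 46.6 CPM in the serum embryo B3, where the next serum embryo had 20.1 CPM.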

How the results depend on the processing

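Of 851 recomputed values of 39 results, 754 kept their direction and side of the threshold or, for counts, stayed within 1.5 times. Most of the others concern counts of 2 pathway genes and fold changes near 0, and the cause was not tested.

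The count of IGF system genes called was 1 instead of 0 with low genes admitted, for in vivo against serum and for serum against serum-free embryos, and each time the gene was IGFBP4. Leaving out 1 embryo gave 0 to 1 for male in vivo against serum embryos, 1 without B1. For in vivo against serum embryos 4 pathway genes were called, 2 with 15 counts required in every embryo of both groups, 8 with no fold limit and 3 to 5 with 1 embryo left out. Under that stricter filter the 2 were IGF2BP3 and DDIT4, and GAB1 and PTPN1 were not tested. For in vivo against serum-free embryos 2 were called, 1 with low genes admitted, 1 in a fit over all 24 embryos and 1 to 2 with 1 embryo left out. For serum against serum-free embryos 2 were called, 1 with low genes admitted, 1 with the stricter filter, 1 with sex as a covariate, 1 without B2, B5 and B7 (left out after seeing the data), 5 with no fold limit and 1 to 3 with 1 embryo left out. Over all genes the calls in the 3 comparisons (1011, 161 and 640) were 544, 94 and 366 with the stricter filter and 2074, 426 and 1171 with no fold limit. They were 74 for the second in the fit over 24 embryos and 271 for the third without B2, B5 and B7.

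The groups share replicate numbers, but the 7 shared numbers of each comparison did not pair the embryos. Deviations of same-numbered embryos correlated at -0.127 to 0.0881, -0.11 to 0.063 and -0.114 to 0.0373. With the replicate block PTPN1 (adjusted p = 0.0982 by edgeR) and GAB1 (0.124) were not called for in vivo against serum embryos and SESN1 was (0.0233). In the same fits 0 pathway genes were called for in vivo against serum-free and 1 for serum against serum-free embryos, and 86 and 28 of all genes. The block gave log2 fold changes of 1.12, 0.418 and -0.825 for IGFBP7 in the 3 comparisons. Under the block IGFBP4 was not called for serum against serum-free embryos (adjusted p = 0.0516 by edgeR). The block gave -0.121 for IGF2R and -0.346 for IGFBP4 for in vivo over serum-free embryos.

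The other changes of sign were in values that passed no test. For in vivo over serum-free embryos IGFBP2 was -0.00511 with DESeq2, -0.0052 with its size factors, -0.00814 with the stricter filter, -0.012 with sex as a covariate and -0.0758 to 0.14 with 1 embryo left out. In the same comparison IGF2R was -0.00338 with DESeq2, -0.000329 with its size factors and -0.334 to 0.287 with 1 embryo left out. Leaving out 1 embryo there gave -0.257 to 0.0412 for IGF1R, -1.67 to 0.0963 for IRS1, -0.414 to 0.355 for IGFBP4 and -0.307 to 0.497 for IGFBP7. For serum over serum-free embryos IGF1R was -0.116 with sex as a covariate and -0.0118 to 0.256 with 1 embryo left out, and IGFBP7 was -0.516 and -1.13 to 1.4. For in vivo over serum embryos IGFBP7 was 1.03 with DESeq2, 0.522 with sex as a covariate and -1.05 to 1.03 with 1 embryo left out. The 95% intervals of IGFBP7 held 2-fold changes in both directions in all 3 comparisons, and depth and the spread between embryos were not separated there.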
